A study of Rattus norvegicus with 16 samples.

Results

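This comparison, one arm of a time course, set cultured rat hippocampal neurons exposed to hydroxyurea for 24 hours against cultures left untreated. It holds 6 of the 15 samples of the study and 7 of its 16 arrays, chosen by sample title: 3 samples at 24 hours and 3 controls. The neurons came from Sprague-Dawley rat embryos at embryonic day 18 and grew on plates for 6 to 9 days according to the series' design text (6 to 8 days according to its growth protocol). The treated cultures received 5 µM hydroxyurea after the growth medium had been exchanged for one whose B27 supplement lacked antioxidants. The untreated group is labelled with a treatment time of 0 hours, and the labels do not say how long it had stayed in the new medium. The extraction protocol speaks of hippocampal tissue, while the cell type label speaks of primary neurons. Transcript levels were read on 1-colour rat Agilent arrays, and the first untreated sample was hybridised on 2 arrays, whose log2 values were averaged to give 1 sample. No label says that the replicates were separate cultures, and the p-values describe the scatter of these particular samples, possibly technical in part.

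Hydroxyurea blocks ribonucleotide reductase, the enzyme that makes deoxynucleotides, by quenching the radical of its small subunit. It is used against myeloproliferative disease and in sickle cell disease, and it can release nitric oxide in the body. Most neurons have left the cell cycle, so their nuclei do not replicate DNA, and the title of the series places the drug among agents tested for protection of neurons against stress. Levels below are log2 signals relative to the 75th percentile of the same array, so that 0 is the brightness of the spot at that percentile, and differences are 24 hours minus untreated on that scale.

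The transcripts of the drug's known target differed little between the groups. Rrm1, the large catalytic subunit of ribonucleotide reductase, read -4.26, -4.16 and -4.11 in untreated replicates 1 to 3 and -4.55, -4.01 and -4.20 at 24 hours, a difference of -0.08 (SE 0.13; 0.10 with normexp background correction). The 24 hour values lay on both sides of the untreated ones. Rrm2, the small subunit that carries the radical, read 3.19, 3.06 and 2.78 untreated and 3.22, 2.58 and 3.18 at 24 hours, a difference of -0.01 (SE 0.17; 0.02 as standard scores). Exact two-sided permutation tests of 3 against 3 samples gave p = 0.8 for Rrm1 and p = 0.9 for Rrm2, where 0.1 is the smallest p this design can give. Rrm2b, the p53-inducible small subunit, was too dim to be tested. Of 21 listed genes of deoxynucleotide supply 19 were measured. Their differences ran from -0.22 for the salvage kinase Dck to 0.25 for the folate enzyme Mthfd1, with a median of -0.01. With normexp the median was 0.04, beside 0.05 over all features, and Dck stood at 0.07. Mthfd1 stood at 0.05 when the first untreated sample was read from its second array alone.

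No feature passed the threshold at 24 hours. Among 18110 features tested (11083 named genes and 7027 probes without a name), 0 had an adjusted p under 0.05 (percent called 0), and the smallest adjusted p was 1.00 (limma, Benjamini-Hochberg over all features). An unadjusted p under 0.05 was found for 101 features with a higher mean at 24 hours (0.558%) and 55 with a lower one (0.304%). That balance turned with the scaling of the arrays: 175 higher and 2 lower after normexp background correction, 80 and 84 after quantile normalization, 78 and 66 with the percentile taken over probes detected on all arrays, 57 and 111 as standard scores, and 62 and 111 in the authors' deposited values. All 3 values at 24 hours lay above all 3 untreated values for 247 features (1.36%) and below them for 285 (1.57%). A higher mean was found for 9881 features (54.6%), the median difference was 0.01, and the median SE was 0.16. With normexp 69.0% of features had a higher mean (median difference 0.05), and after quantile normalization 45.1% did (median -0.01), so list medians are read against that shift. All group sizes were 3, and the number of arrays limits the precision.

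Treated and untreated samples were often as close to each other as samples of 1 group. The median absolute log2 difference over all features was 0.112 between the 2 arrays of untreated replicate 1, and 0.156, 0.164 and 0.197 between pairs of untreated samples. It was 0.147 between 24 hour replicates 1 and 3, but 0.269 and 0.262 from replicate 2 to those 2 samples. Across the groups it ran from 0.132 (24 hour replicate 1 and untreated replicate 1) to 0.283 (24 hour replicate 2 and untreated replicate 1). The 24 hour replicate 2 therefore stood farther from the other treated samples than they stood from any untreated one, and values without it are given where a result rests on it. In the authors' deposited values the columns of 24 hour replicates 1 and 3 were exchanged relative to the scanner readings, which leaves the group of 3 the same. The arrays lay on 2 slides, and both slides held samples of both groups. Slide 1 held 24 hour replicate 3, the first array of untreated replicate 1 and untreated replicate 2. Slide 2 held 24 hour replicates 1 and 2, the repeat array of untreated replicate 1 and untreated replicate 3.

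**Figure D1:**
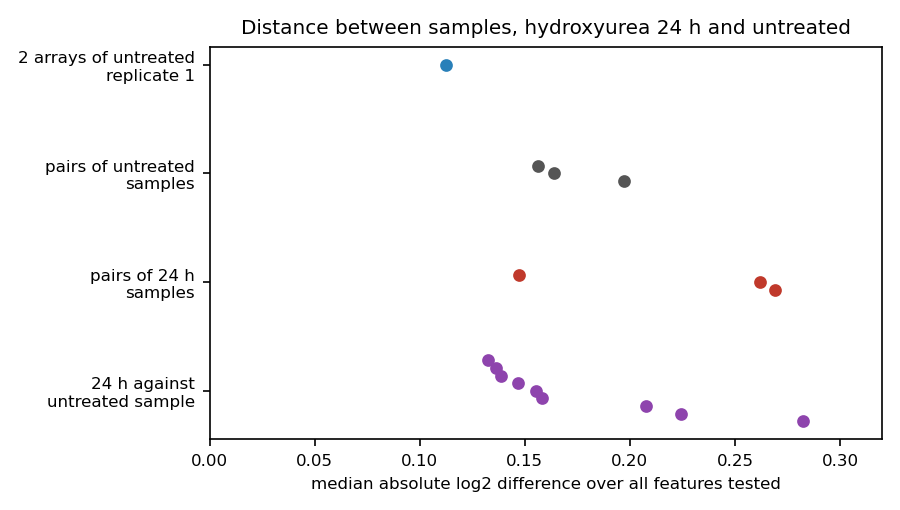
Median absolute log2 difference over 18110 features for each pair of samples, one point per pair, by kind of pair. The 2 pairs that hold 24 hour replicate 2 and another treated sample lie at 0.262 and 0.269, to the right of 8 of the 9 pairs of a treated and an untreated sample.

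Most of the largest differences came with a gap between the 2 arrays of untreated replicate 1. These arrays lay at least 1 log2 unit apart for 701 features, and the first array was the lower one for 609 of them. Its replicate spots also scattered more, with a median coefficient of variation of 11.9% against 3.91% on the repeat array. Of 60 features whose difference was at least 1 in size, 43 had the 2 arrays at least 1 apart, and 18 kept a difference of that size with the repeat array alone. Of the 19 among them that were well above background in all 6 samples, 16 had the arrays that far apart and 2 kept their size. Rps15, a protein of the small ribosomal subunit, read 0.52 on the first array and 5.84 on the repeat. Its other 5 samples lay between 5.95 and 6.12, and its difference of 1.01 became 0.12 with the repeat array alone. Tfe3, a transcription factor of lysosome genes, read -5.13 and 1.22 on the 2 arrays, and its difference of 1.07 became 0.01. Dipk1b read -4.23 and 1.82, and its difference of 1.04 became 0.03. Ccdc24, the fourth named gene with such a difference and all 6 samples well above background, read -4.29 in 24 hour replicate 1 against -6.15 and -6.22 in the other two. Its difference was 1.01 (SE 0.54), and 0.38 without that replicate.

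**Figure D2:**
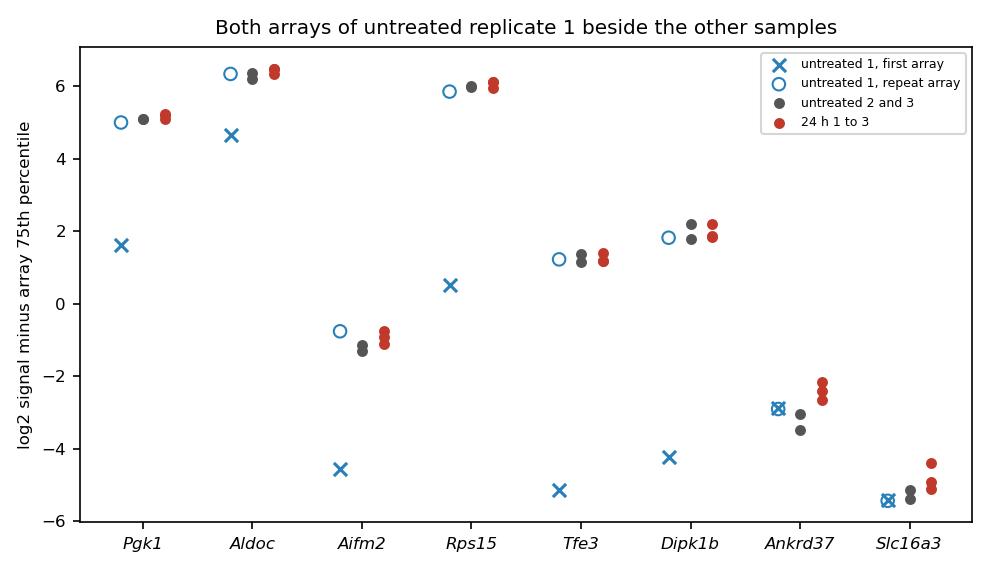
Log2 signal relative to the array's 75th percentile for 8 genes, with the first and the repeat array of untreated replicate 1 drawn apart from the other samples. For Pgk1, Aldoc, Aifm2, Rps15, Tfe3 and Dipk1b the first array lies below all other points, while for Ankrd37 and Slc16a3 both arrays nearly coincide.

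Among genes whose groups did not overlap, Ankrd37 had the smallest p of the higher ones. Ankrd37 encodes an ankyrin repeat protein and is a direct target of hypoxia-inducible factor. It read -2.88, -3.05 and -3.47 untreated and -2.65, -2.41 and -2.16 at 24 hours. The means were -3.13 ± 0.30 and -2.41 ± 0.24 (SD, n = 3 each), a difference of 0.73 (SE 0.20), or 1.65-fold. The unadjusted p was 0.0024 and the adjusted p 1.00 in limma. The exact permutation test gave p = 0.1, the smallest possible. Any gene whose groups do not overlap gets that value, so the test adds nothing to the choice of this gene. Both arrays of untreated replicate 1 read alike for it, -2.86 and -2.90, and the difference ran from 0.56 to 0.85 when each sample was left out in turn.

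The other genes described on the higher side differed by between 0.31 and 0.80. The zinc transporter gene Slc39a5 read -4.89, -4.63 and -4.89 untreated and -4.47, -3.54 and -4.02 at 24 hours, a difference of 0.80 (SE 0.30), and 0.56 without 24 hour replicate 2. The serine protease gene Prss30 differed by 0.74 (SE 0.24), the orphan receptor gene Gpr146 by 0.63 (SE 0.20), and the mixed lineage kinase gene Map3k11 by 0.49 (SE 0.15). Rxra, a nuclear receptor that pairs with retinoid and other receptors, read -6.13, -5.93 and -6.16 untreated and -5.90, -5.55 and -5.63 at 24 hours, a difference of 0.38 (SE 0.11). The forkhead factor gene Foxo4 differed by 0.39 (SE 0.13), the phospholipase gene Pla2g4b by 0.31 (SE 0.11) and the pheromone receptor gene Vom2r18 by 0.32 (SE 0.12). Aifm2, which encodes a ubiquinone reductase that limits lipid peroxidation, differed by 0.76 (SE 0.29), but by 0.13 with the repeat array of untreated replicate 1, whose first array read -4.55 against -0.76. A second probe for Aifm2 differed by 0.04. Slc16a3, the remaining gene, is described with glycolysis.

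On the lower side the BCL2 family gene Bcl2l15 had the smallest p. It read -5.88, -5.28 and -5.54 untreated and -6.05, -6.34 and -6.62 at 24 hours, a difference of -0.77 (SE 0.19), and it was well above background in 2 of the 3 treated samples. Under normexp background correction that difference was -0.08. The zinc finger gene Zfp667 read -3.96, -4.09 and -4.12 untreated and -4.49, -4.36 and -4.32 treated, a difference of -0.34 (SE 0.10). Tox, a chromatin-associated factor, differed by -0.36 (SE 0.13), with -0.30 for a second probe, and Elapor2 by -0.38 (SE 0.15). The netrin receptor gene Unc5c stood at -0.23 (SE 0.10), the postsynaptic adhesion gene Slitrk2 at -0.37 (SE 0.16) and the LGI1 receptor gene Adam23 at -0.37 (SE 0.17). The spindle assembly gene Tpx2 stood at -0.29 (SE 0.12), the lactate and pyruvate carrier gene Slc16a7 at -0.28 (SE 0.13), the dermatan sulfate epimerase gene Dse at -0.33 (SE 0.15) and Plcxd3 at -0.31 (SE 0.15). Tmbim7 stood at -0.39 (SE 0.16). With normexp correction Dse and Tmbim7 turned to 0.08 and 0.16, and Slitrk2 stood at -0.00.

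**Figure D3:**
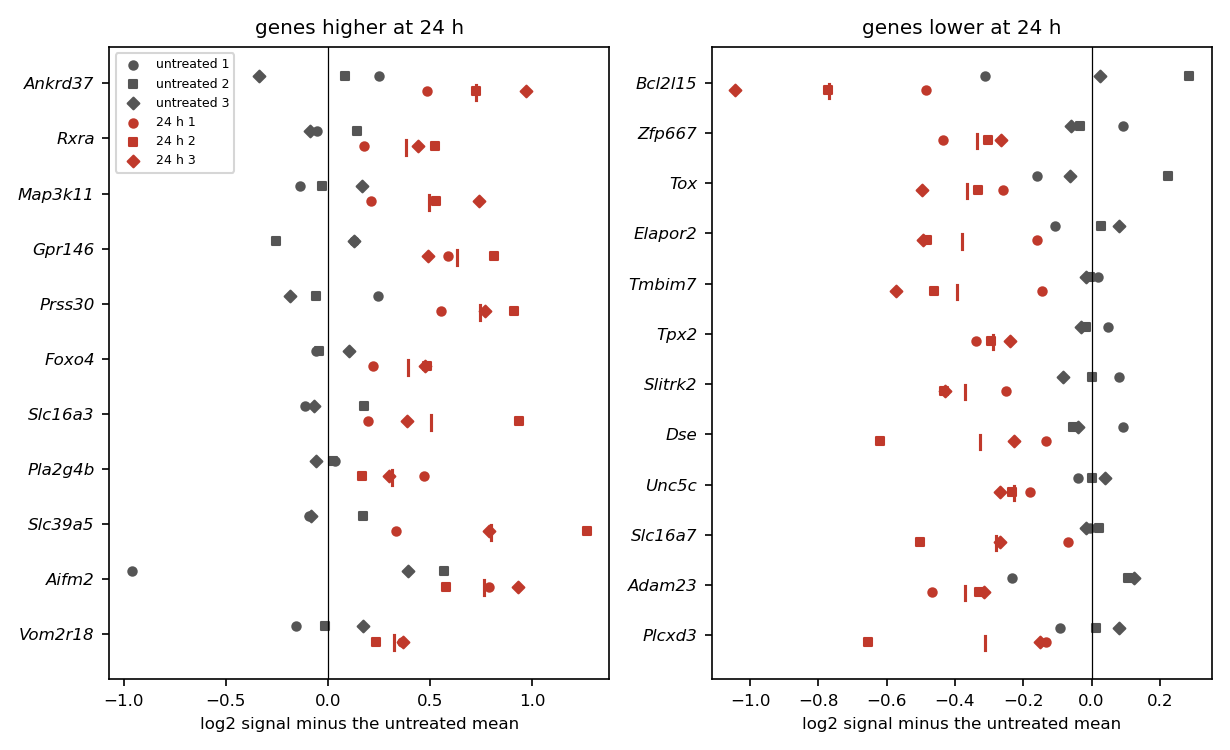
Each sample's log2 signal minus the untreated mean for higher (left) and lower (right) named genes with the smallest p among those whose groups did not overlap; the vertical ticks mark the 24 hour means. Within each gene the 3 red points lie on one side of the 3 grey ones, a choice made by the rule, with means from 0.31 to 0.80 above and from 0.23 to 0.77 below the untreated mean.

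Hypoxia-inducible factor (HIF) is a transcription factor whose alpha subunit is marked for degradation by iron-dependent prolyl hydroxylases, and which binds the core motif ACGTG or GCGTG near its target genes. Of 39 listed genes of the HIF pathway and its targets outside glycolysis, 35 were on the array and 30 were bright enough to be tested. In 24 of the 30 the mean was higher at 24 hours, with a median difference of 0.08, beside 54.6% and 0.01 over all features. None passed the threshold, 3 had all treated values above all untreated ones (against 1.36% of features), and 0 had them below. The median over members of each sample's deviation from the 6-sample mean was -0.01, -0.06 and -0.09 untreated and 0.03, 0.08 and 0.05 treated. The groups did not overlap on this summary. Of the 39 lists the same held only for the adhesion list and the GABA and glycine list, both lower at 24 hours. With so many lists such a separation is weak evidence. The list's median was 0.04 without 24 hour replicate 2 and 0.04 in the authors' deposited values. In these bulk samples a change in the number of cells of a type and a change in RNA per cell cannot be told apart.

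The 3 members whose groups did not overlap were Ankrd37, Kdm3a and P4ha1. Kdm3a, a histone H3 lysine demethylase, read -1.99, -2.08 and -2.01 untreated and -1.83, -1.62 and -1.63 treated, a difference of 0.34 (SE 0.21). P4ha1, the catalytic subunit of the collagen prolyl hydroxylase, read -2.16, -2.41 and -2.33 untreated and -2.07, -2.05 and -2.12 treated, a difference of 0.22 (SE 0.19). Secreted signals had overlapping values. Adm (adrenomedullin) read -1.11, -1.37 and -1.30 untreated and -0.80, -1.32 and -1.04 treated, a difference of 0.20 (SE 0.13). Vegfa, the vascular growth factor, read 1.81, 1.70 and 1.78 untreated and 2.12, 1.70 and 2.04 treated, a difference of 0.19 (SE 0.15), and its 3 other probes differed by 0.33, 0.54 and 0.10. The heme oxygenase gene Hmox1 stood at 0.23 (SE 0.22), with 1 treated value, -0.17 in replicate 2, above all others. Genes of the pathway itself differed less: -0.07 (SE 0.20) for Hif1a, 0.08 (SE 0.32) for Epas1, 0.10 (SE 0.15) for Vhl and 0.09 (SE 0.10) for the hydroxylase gene Egln3. The lowest member was P4ha2 at -0.10 (SE 0.12).

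The promoter windows of these 3 genes, from RefSeq on GRCr8, are shown because they are the HIF pathway members that separated the groups and differ in the core motif. Each window runs 5′ to 3′ on the gene's strand, from 250 bases before to 50 after the gene's first base, and capitals mark each match of ACGTG or GCGTG on either strand. Ankrd37 lies at chr16:53001257-53001556 on the plus strand, P4ha1 at chr20:27844796-27845095 on the plus strand and Kdm3a at chr4:105233321-105233620 on the minus strand.
Ankrd37: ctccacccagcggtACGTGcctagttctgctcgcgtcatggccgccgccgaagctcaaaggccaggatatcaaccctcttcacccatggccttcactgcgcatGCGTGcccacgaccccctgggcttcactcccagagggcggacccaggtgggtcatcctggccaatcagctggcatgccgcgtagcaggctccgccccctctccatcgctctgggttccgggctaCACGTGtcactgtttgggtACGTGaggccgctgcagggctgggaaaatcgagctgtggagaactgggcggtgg
P4ha1: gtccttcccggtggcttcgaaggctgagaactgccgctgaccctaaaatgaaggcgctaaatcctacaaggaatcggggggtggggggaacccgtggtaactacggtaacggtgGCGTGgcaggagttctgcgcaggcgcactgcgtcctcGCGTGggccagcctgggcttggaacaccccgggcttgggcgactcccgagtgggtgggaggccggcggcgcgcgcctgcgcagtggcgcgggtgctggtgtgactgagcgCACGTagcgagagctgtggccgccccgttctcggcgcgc
Kdm3a: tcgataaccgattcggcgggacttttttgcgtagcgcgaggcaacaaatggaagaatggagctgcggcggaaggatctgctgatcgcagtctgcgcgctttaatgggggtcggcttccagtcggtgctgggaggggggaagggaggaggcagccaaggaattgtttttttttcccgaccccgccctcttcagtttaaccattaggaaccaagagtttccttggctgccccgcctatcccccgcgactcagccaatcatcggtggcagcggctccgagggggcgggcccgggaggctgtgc
Ankrd37 held 5 matches, 2 of them on opposite strands of the E-box CACGTG, which contains the motif, at positions -23 and -22 from the gene's first base. The last match of Ankrd37 ended on that base. P4ha1 held 3 matches, starting at -136, -99 and 11, and Kdm3a held 0. The motif is common: 60.9% of 9095 named genes tested that had a window held a match, against 17 of 26 HIF list members (65.4%) and 20 of 29 glycolysis members (69.0%). At least 2 matches were found in 32.2% of named genes and 12 of 26 HIF list members (46.2%). A match describes these letters only and is not a measured binding site.

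Glycolysis turns glucose into pyruvate, and monocarboxylate carriers move lactate and pyruvate across membranes. Of 31 measured genes of the pathway 23 had a higher mean at 24 hours, with a median difference of 0.07 (all features 54.6% and 0.01), and none passed. Slc16a3, which encodes the lactate exporter MCT4, read -5.42, -5.13 and -5.38 untreated and -5.11, -4.38 and -4.92 treated, a difference of 0.51 (SE 0.17), or 1.42-fold. It was the only member with all treated values above the untreated ones (against 1.36% of features). Its promoter window held 0 matches of the HIF motif. The difference was 0.29 without 24 hour replicate 2. Slc16a7, which encodes the high-affinity carrier MCT2 of neurons, was the only member separated downwards (against 1.57% of features). It read -3.18, -3.15 and -3.19 untreated and -3.24, -3.67 and -3.44 treated, a difference of -0.28 (SE 0.13).

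The glycolytic enzymes themselves overlapped between the groups. The hexokinase gene Hk2 read -5.10, -5.00 and -4.99 untreated and -5.14, -4.70 and -4.50 treated, a difference of 0.25 (SE 0.16). The lactate dehydrogenase gene Ldha stood at 0.17 (SE 0.13), the aldolase gene Aldoa at 0.18 (SE 0.14), the enolase gene Eno1 at 0.14 (SE 0.13) and the pyruvate dehydrogenase kinase gene Pdk1 at 0.14 (SE 0.15). In each of these, apart from Hk2, the highest of the 6 values was that of 24 hour replicate 2. The largest difference of the list was not held by all arrays. Pgk1 (phosphoglycerate kinase) differed by 0.68 (SE 0.34), but its first array of untreated replicate 1 read 1.63 and the repeat 4.99, and with the repeat alone the difference was 0.12. Aldoc, an aldolase of astrocytes, went from 0.41 to 0.13 in the same way. The list's median was 0.09 with the repeat array, 0.03 without untreated replicate 1 and 0.14 without 24 hour replicate 1. By sample the median deviation was -0.11, -0.07 and 0.07 untreated and 0.01, 0.18 and -0.03 treated, so on this summary the groups overlapped.

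**Figure D4:**
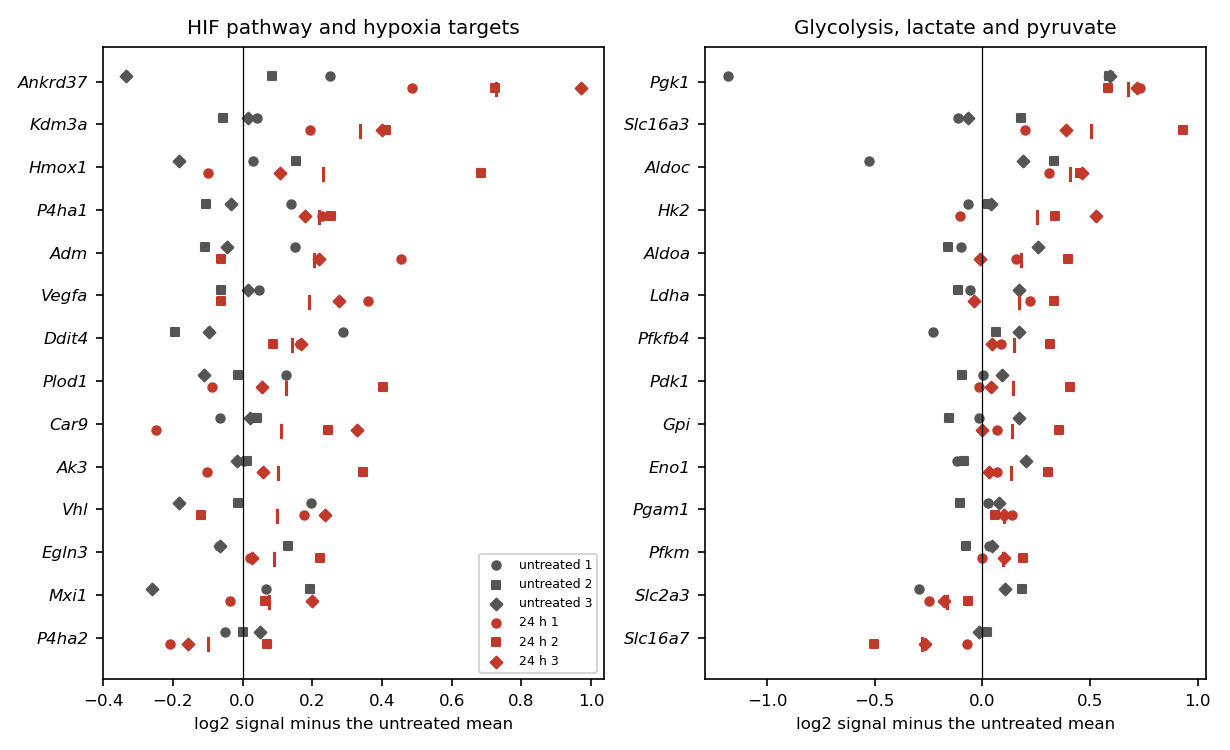
Each sample's log2 signal minus the untreated mean for the 14 members of the HIF list (of 30 measured) and the 14 of the glycolysis list (of 31) with the smallest unadjusted p in limma. The members not drawn had larger p. Grey marks are untreated, red marks 24 hours, and the vertical ticks are the 24 hour means. Ankrd37, Kdm3a and P4ha1 separate the groups on the left and Slc16a3 and Slc16a7 on the right, and Pgk1 shows the low value of untreated replicate 1.

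Receptors for inhibitory transmitters had the lowest median of the 39 gene lists. Of 19 measured genes of GABA and glycine receptors and their partners 15 had a lower mean at 24 hours, with a median of -0.14. None passed the threshold or had an unadjusted p under 0.05. In 5 all treated values lay below all untreated ones (against 1.57% of features). Among them were the receptor subunit genes Gabrb2, Gabra4, Gabrb1 and Glrb. Gabrb2 read -5.52, -5.57 and -5.39 untreated and -5.99, -5.71 and -5.64 treated, a difference of -0.29 (SE 0.21). Glrb, the anchoring subunit of glycine receptors, stood at -0.19 (SE 0.12), Gabra4 at -0.19 (SE 0.19) and Gabrb1 at -0.18 (SE 0.28). The metabotropic receptor gene Gabbr1 was the highest member at 0.13 (SE 0.12). The list's median was -0.04 with normexp correction, under which Gabrb2 and Glrb stood at 0.10 and 0.09, and -0.09 without 24 hour replicate 2.

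Excitatory receptors and adhesion molecules of synapses stood on the same side. Of 14 measured AMPA and kainate receptor genes 11 had a lower mean, with a median of -0.11 and 0 separated. The AMPA subunit gene Gria2 read 0.25, 0.08 and -0.16 untreated and -0.13, -0.22 and -0.05 treated, a difference of -0.19 (SE 0.18). It was the lowest member, and the kainate subunit gene Grik4 was the highest at 0.19 (SE 0.21). Of 16 NMDA and metabotropic receptor genes 12 had a lower mean (median -0.04, and 0.02 with normexp beside 0.05 over all features). The list's highest, Grin2d at 0.56 (SE 0.46), reached 6.03 in 24 hour replicate 3 against 4.29 and 4.60 in the other treated samples. Of 30 synaptic adhesion genes 24 had a lower mean, with a median of -0.09, and 3 were separated downwards (against 1.57% of features). Slitrk2 read -5.09, -5.17 and -5.26 untreated and -5.43, -5.61 and -5.60 treated. Lrrtm2, a partner of neurexins, read -1.90, -2.02 and -2.04 untreated and -2.27, -2.52 and -2.12 treated, a difference of -0.31 (SE 0.18), while a second probe differed by -0.06. The neuroligin gene Nlgn1 stood at -0.20 (SE 0.11). The adhesion list's summary by sample was 0.02, 0.05 and 0.03 untreated and -0.08, -0.06 and -0.03 treated. It did not overlap, which of the 39 lists held only here and for the HIF and the GABA and glycine lists. Its median was -0.04 without 24 hour replicate 2, -0.04 with normexp correction and -0.04 within slide 2.

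Ion channel and release genes were spread around a slightly lower centre. Sodium and HCN channel genes had a lower mean in 11 of 13 (median -0.08, and -0.003 without 24 hour replicate 2). Voltage-gated calcium channel genes had one in 9 of 12 (median -0.05, and 0.02 without untreated replicate 3). Potassium channel genes had one in 25 of 41 (median -0.04, and 0.04 with normexp) and presynaptic release genes in 26 of 39 (median -0.05, and 0.03 with normexp). Both normexp medians lay below the 0.05 of all features under that setting. Kcnj6, the GIRK2 potassium channel gene, read -3.97, -4.48 and -4.30 untreated and -4.30, -4.81 and -4.66 treated, a difference of -0.34 (SE 0.15), with 1 treated value inside the untreated range. The calcium channel subunit gene Cacnb4 stood at -0.24 (SE 0.17), while a second probe differed by -0.05. It was 1 of 3 calcium channel members with all treated values below all untreated ones (against 1.57% of features). Snap25, a SNARE protein of vesicle fusion, read 1.71, 1.70 and 1.74 untreated and 1.69, 1.38 and 1.53 treated, a difference of -0.19 (SE 0.14), and its second probe differed by -0.18. Immediate early and activity-regulated genes had a lower mean in 24 of 33, with a median of -0.05 (0.00 with normexp) and 0 separated in either direction. With normexp correction Kcnj6 stood at 0.02.

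**Figure D5:**
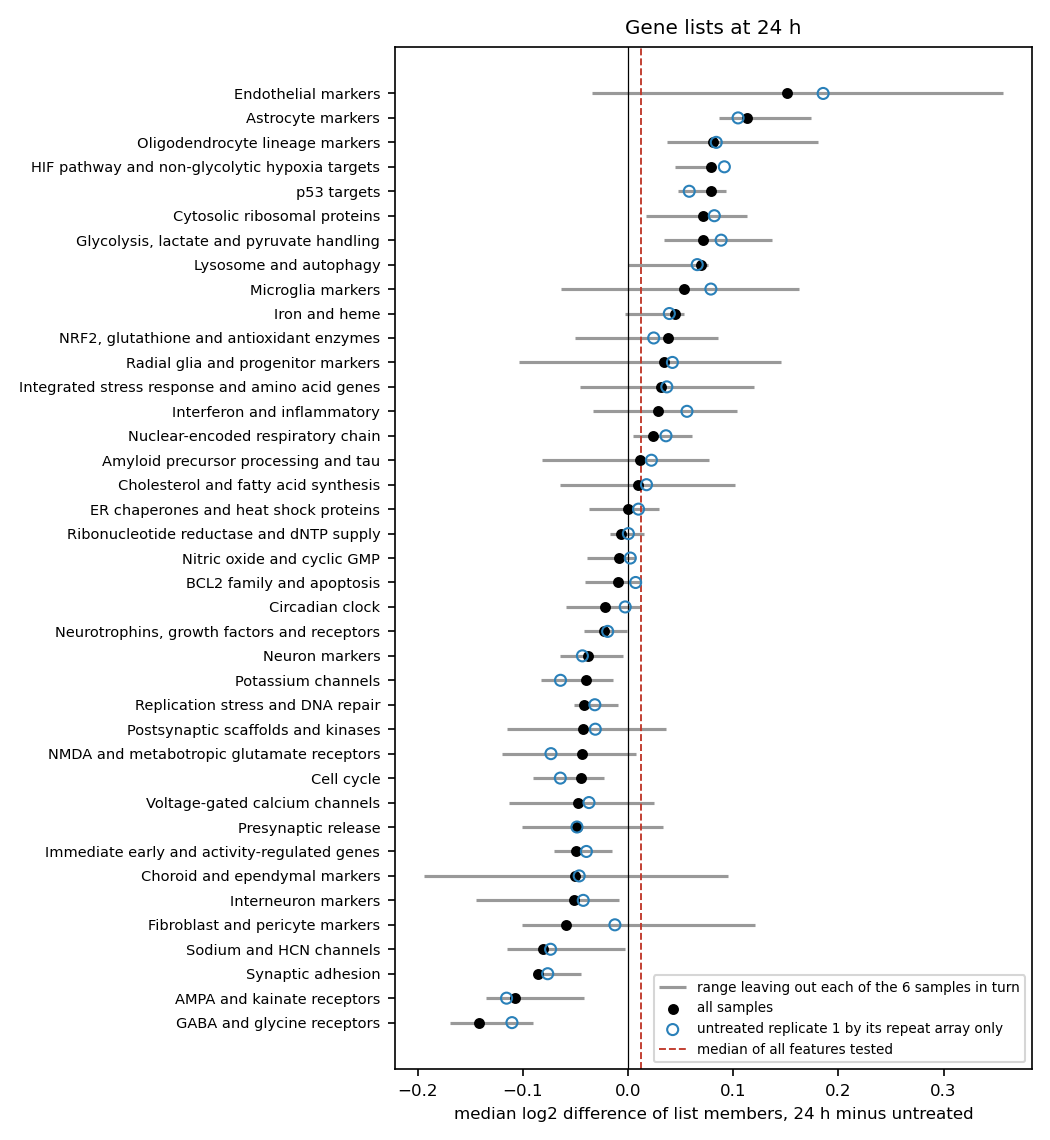
Median log2 difference over the measured members of each of 39 gene lists (black), the same with untreated replicate 1 read from its repeat array (blue circles) and the range when each of the 6 samples is left out in turn (grey lines); the red dashed line marks the median of all features, 0.01. The lists run from -0.14 for GABA and glycine receptors to 0.15 for endothelial markers, which rest on 5 measured genes and have the widest grey line.

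Cell division and DNA damage genes, which follow a block of DNA synthesis in dividing cells, showed small differences. Of 37 cell cycle genes 27 had a lower mean, with a median of -0.04. Tpx2 read -1.80, -1.87 and -1.88 untreated and -2.19, -2.14 and -2.09 treated. It was the only member with an unadjusted p under 0.05 in limma (against 0.304% of features on the lower side). With the ubiquitin-conjugating gene Ube2c, at -0.17 (SE 0.09), it made up the 2 members separated downwards (against 1.57% of features). The cytokinesis gene Prc1 stood at -0.17 (SE 0.10). The proliferation marker Mki67 read 1.02, 0.92 and 0.79 untreated and 0.73, 0.54 and 1.00 treated, with overlap. The cyclin gene Ccnb1 was the highest member at 0.39, and stood at -0.08 with the repeat array of untreated replicate 1. Of 22 replication stress and repair genes 13 had a lower mean (median -0.04, and 0.02 with normexp beside 0.05 over all features). The checkpoint kinase gene Chek1 was the only one separated downwards, at -0.21 (SE 0.12), against 1.57% of features.

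Targets of p53, the tumour suppressor activated by DNA damage, had a higher mean in 18 of 23, with a median of 0.08 and 0 separated. Phlda3, an inhibitor of AKT, read -3.96, -3.24 and -2.54 untreated and -2.57, -2.86 and -2.79 treated, a difference of 0.50 (SE 0.29), with the spread lying among the untreated samples. Cdkn1a, the cyclin-dependent kinase inhibitor p21, read 2.71, 2.84 and 3.11 untreated and 2.83, 3.46 and 3.18 treated, a difference of 0.27 (SE 0.19), and its second probe differed by 0.26. The feedback regulator Mdm2 stood at -0.01. In the BCL2 and apoptosis list 14 of 24 had a lower mean (median -0.01, and 0.02 with normexp beside 0.05 over all features). Bax stood at 0.18 (SE 0.16) and Bcl2l15 at the low end.

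Genes that respond to oxidants and nitric oxide had medians near that of all features, and lysosome genes had a higher one. Of 32 genes of the NRF2 and glutathione system 20 had a higher mean (median 0.04). The glutathione transferase gene Gsta4 was highest at 0.56, but read -0.26 and 2.70 on the 2 arrays of untreated replicate 1 and stood at 0.07 with the second. The quinone reductase gene Nqo1 read -2.69, -1.44 and -1.99 untreated and -2.03, -1.03 and -1.86 treated, a difference of 0.40 (SE 0.36). Of 26 nitric oxide and cyclic GMP genes 12 had a higher mean (median -0.01, and 0.08 with normexp). The guanylyl cyclase subunit gene Gucy1a2 read -3.49, -3.83 and -3.09 at 24 hours, and its lowest untreated value was -3.11, inside the treated range. Its difference was -0.43 (SE 0.21), with -0.18 for a second probe. Of 40 lysosome and autophagy genes 30 had a higher mean (median 0.07, and 0.00 without 24 hour replicate 2). Tfeb, the master regulator of lysosome genes, read -5.48, -5.48 and -5.01 untreated and -5.14, -4.24 and -3.76 treated, a difference of 0.94 (SE 0.39), with 1 treated value inside the untreated range and 2 of 3 untreated samples well above background. The progranulin gene Grn differed by 0.78 (SE 0.37), and by 0.10 with the repeat array, close to the 0.09 of a second probe.

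Markers of cell types were read beside these lists. Of 20 neuron markers 17 were measured, all well above background in each of the 6 samples, and 13 had a lower mean (median -0.04), with Snap25 lowest at -0.19 and Tubb3 highest at 0.09. By sample the neuron summary was -0.08, 0.02 and 0.13 untreated and 0.01, 0.04 and -0.05 treated, with overlap. Of 16 measured interneuron markers 15 had a lower mean (median -0.05), led by the GABA-synthesising enzyme gene Gad2 at -0.26 (SE 0.20). The exception, the calcium-binding parvalbumin gene Pvalb, had the largest difference of the list at 0.50 (SE 0.28), and 0.23 without untreated replicate 1. Within slide 2 the list's median was 0.04. Cultures labelled as neurons also held glial transcripts: 20 of 21 astrocyte markers were well above background in all 6 samples. Of those 20, 18 had a higher mean (median 0.11), from -0.03 for Aldh1l1 to 0.48 for the amino acid carrier gene Slc7a10. With the repeat array of untreated replicate 1 the list's median was 0.10. The astrocyte summary by sample was 0.02, -0.04 and -0.15 untreated and -0.02, 0.18 and 0.12 treated, so the groups overlapped. Oligodendrocyte lineage markers had a higher mean in 12 of 14 (median 0.08), with Mag at 0.29 (SE 0.18) and Mbp at 0.37 (SE 0.40). A second probe for Mbp differed by 0.04. At 24 hours the glial lists thus had higher medians and the neuronal list a lower one beside the lower medians of the receptor lists, and their part in those results was not tested.

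The rarer cell types gave wider values. Of 13 measured microglia markers 9 had a higher mean (median 0.05). Spi1, the myeloid transcription factor, read -6.58, -8.52 and -5.96 untreated, well above background in 1 of these 3, and -5.31, -5.33 and -4.60 treated, a difference of 1.94 (SE 0.83). Tyrobp stood at 0.34 (SE 0.24) and Cx3cr1 at 0.20 (SE 0.18), both with overlap, and Cd68 at -0.01. Spi1 was 0.62 with normexp correction, and the list's median turned to -0.03 as standard scores. Only 5 of 17 endothelial markers were measured, from Kdr at -0.27 to Pecam1 at 0.28. Of 16 fibroblast and pericyte markers 5 had a higher mean (median -0.06, and 0.04 with normexp beside 0.05 over all features). Of 8 choroid and ependymal markers 1 did (median -0.05). Of 15 radial glia and progenitor markers 11 had a higher mean (median 0.03).

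A second comparison asked which differences belonged to the longest exposure, by setting 24 hours against the mean of the samples at 2, 6 and 12 hours. It shares no untreated sample with the first comparison but does share the 24 hour samples. Genes named for their 24 hour values are therefore favoured to differ here too. Of 18110 features 0 passed (percent called 0), and the smallest adjusted p was 1.00 (limma). At an unadjusted p under 0.05 stood 189 features, 104 with higher means and 85 with lower ones. Without 12 hour replicate 3, whose spots scattered most of all arrays (median coefficient of variation 22.4%), the count was 239. That sample enters the earlier mean and, through the shared fit, every SE given here. Ankrd37 did not stand apart here. It differed from untreated by 0.65 at 2 hours, 0.69 at 6 hours, 0.73 at 12 hours and 0.73 at 24 hours, and 24 hours minus the earlier mean was 0.04 (SE 0.16). The differences from untreated at all 4 times use the same 3 untreated samples by which Ankrd37 was chosen. Low untreated values would raise all of them, so the earlier times are not independent evidence for this gene. Every treated sample at every time, from -2.87 to -2.16, lay above all 3 untreated samples, the highest of which was -2.88. That highest value averages both arrays of the first untreated sample, and the brighter array read above the lowest treated sample. Slc16a3 differed from untreated by -0.05, 0.19, 0.44 and 0.51 at the 4 times, and by 0.31 (SE 0.14) from the earlier mean. Rxra differed by 0.10, 0.12, 0.09 and 0.38, and by 0.28 (SE 0.09) from the earlier mean.

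The genes with lower means at 24 hours divided in the same way. They too were chosen by their 24 hour and untreated values, so their differences from the earlier times are not independent evidence. Nor are the differences of the earlier times from untreated, which use the same untreated samples. Bcl2l15 stood at -0.38, -0.12, -0.17 and -0.77 relative to untreated at the 4 times, and at -0.55 (SE 0.16) relative to the earlier mean. Tox stood at -0.04, 0.04, -0.03 and -0.36, and at -0.35 (SE 0.10). Tpx2 stood at -0.00, -0.00, -0.12 and -0.29, and at -0.25 (SE 0.10). Elapor2, by contrast, stood at -0.31, -0.32, -0.24 and -0.38, and at -0.09 (SE 0.12) relative to the earlier mean. Pgk1 lay between 5.04 and 5.34 in all 12 treated samples and at 5.08 in untreated replicates 2 and 3. The GABA and glycine receptor list had medians of -0.05, -0.02, 0.03 and -0.14 relative to untreated at the 4 times, and 15 of its 19 members were lower at 24 hours than in the earlier samples (median -0.06). The AMPA and kainate list had medians of -0.03, 0.01, 0.02 and -0.11. The HIF list had 0.01, 0.07, 0.06 and 0.08, and the glycolysis list -0.01, -0.00, 0.06 and 0.07. All 4 of these sets of medians use the same 3 untreated samples.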

How the data were processed

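Per the file headers, the authors scanned 1-colour Agilent arrays and extracted each spot's background-subtracted intensity with Agilent Feature Extraction 11.5.1.1 (deposited, not scaled between arrays). The authors also deposited a score per spot, which the values show to be the standard score of the log signal within each array; nothing states how it was made. From the scanner files, log2 intensities minus the array's 75th percentile over non-control spots were averaged over the spots of each probe without an outlier flag. Of 30367 probes 18758 matched 15715 RefSeq gene symbols by accession. A probe was kept when any of the 5 groups had it well above background on all its arrays, and the brightest probe stood for its gene, which left 18110 features.

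One limma 3.58.1 model in R 4.3.3 (lmFit, eBayes, no covariate) covered all 15 samples, with 10 residual degrees of freedom. Tests were two-sided, with Benjamini-Hochberg adjustment and a threshold of 0.05, and the script was tested on simulated data. Gene lists were described by counts and medians. The members and lists were chosen with earlier results of these data known. Genes named were the 12 on each side with the smallest p among those well above background in a whole group and without overlap, up to 3 per list by p, the ends of list ranges, differences of at least 1 with all 6 samples well above background, and Rrm1, Rrm2, Rrm2b and Ankrd37. Other list members were named after their values were seen. Some genes that this rule selects are not reported here, in text or figures. Alternatives covered background correction, scaling, filters, blocks and each sample left out. The normexp alternative (offset 50) used median spot signals, because mean signals were not in the files analysed here. A member that passed the filter in its brighter group alone is biased towards a difference.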

Additional observations from a re-analysis of the deposited data

How the results depend on the processing

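No feature passed the adjusted threshold under any alternative run. The smallest adjusted p (limma) was 0.138, in a fit with the replicate block and 24 hour replicates 1 and 3 exchanged. The count with an unadjusted p under 0.05, 156 of 18110 in the reported fit, was 522 without a filter on dim probes, 102 with probes well above background on all 16 arrays, 597 within slide 1, 81 within slide 2 and from 119 to 514 when each sample was left out in turn. The cause was not tested. Against the earlier times the 189 became 36 after normexp and 226 to 491 without each 24 hour replicate. Deviations of same-numbered samples correlated at 0.112, 0.012 and -0.422. With 24 hour replicates 1 and 3 exchanged the values were 0.185, 0.012 and 0.086. With so few samples these values cannot settle whether the replicate numbers pair the samples. With the number as a replicate block 207 features had an unadjusted p under 0.05, and 247 with replicates 1 and 3 exchanged; with slide as a block 191.

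Of 975 list medians under 25 alternatives 37 moved by more than the spread between samples and 96 changed sign, and 12 of 39 lists kept their sign throughout: astrocyte, oligodendrocyte and neuron markers, HIF, glycolysis, p53, lysosome, cell cycle, sodium and HCN channels, adhesion, AMPA and kainate, and GABA and glycine. Sign here is that of the median itself, not of its distance from the median of all features, which moved with the setting. After normexp the median of all features was 0.053. Beside it the list medians were 0.019 for the BCL2 list, 0.031 for clock, -0.037 for GABA and glycine, 0.067 for neurotrophins, 0.076 for nitric oxide, 0.043 for potassium channels, 0.021 for replication stress, 0.036 for deoxynucleotide supply and -0.041 for adhesion. After quantile normalization the BCL2 list stood at -0.034 and deoxynucleotide supply at -0.039. As standard scores and in the deposited values, in that order, clock stood at -0.058 and -0.065, HIF at 0.042 and 0.040, nitric oxide at -0.0823 in both and the respiratory chain at 0.082 and 0.088. Slide 1 held only 24 hour replicate 3 of the treated samples, beside the first array of untreated replicate 1 and untreated replicate 2. Within it the medians were -0.056 for BCL2, -0.073 for GABA and glycine, 0.092 for potassium channels and -0.0029 for replication stress. Within slide 2 they were 0.034 for BCL2, -0.11 for potassium channels and -0.044 for adhesion. With the first of the 2 array numbers as a block (chosen after seeing the data) neurotrophins stood at 0.041. Leaving out each sample in turn gave -0.041 to 0.011 for BCL2, -0.059 to 0.011 for clock, -0.10 to 0.12 for fibroblasts and pericytes, 0.045 to 0.078 for HIF, -0.0031 to 0.054 for iron, 0.00029 to 0.076 for lysosome, -0.052 to -0.0099 for replication stress and -0.082 to -0.045 for adhesion. The quantile setting turned the ribosomal list from 0.07 to -0.02. Of 161 named genes 97 kept their sign under every alternative run.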

Other observations

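Cytosolic ribosomal protein genes had a higher mean at 24 hours in 62 of 69, with a median of 0.07 (-0.02 after quantile normalization). Only Rps3 was separated, upwards at 0.18 (SE 0.18), against 1.36% of features. By sample the median deviation was -0.03, 0.02 and -0.11 untreated and -0.01, -0.04 and 0.16 treated, so 24 hour replicate 3 stood highest and the groups overlapped; the list's median was 0.02 without that replicate. Nuclear-encoded respiratory chain genes had a higher mean in 30 of 44 (median 0.02, and -0.02 after quantile normalization). Of 27 genes of amyloid precursor processing and tau 16 had a higher mean (median 0.01, and -0.02 after quantile normalization), from Aph1a at -0.29 to the lipoprotein receptor gene Lrp1 at 0.19. The apolipoprotein gene Apoe read 7.21, 7.08 and 6.95 untreated and 6.97, 7.56 and 7.26 treated. The secretase subunit gene Ncstn, separated downwards (against 1.57% of features), stood at -0.07 (SE 0.09).

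Of 30 genes of ER chaperones and heat shock proteins 15 had a higher mean (median -0.00, and 0.01 as standard scores). Hspa8 was separated upwards at 0.15 (SE 0.16), against 1.36% of features. Sel1l and Canx were separated downwards at -0.18 (SE 0.11, and 0.03 with normexp) and -0.15 (SE 0.13), against 1.57%. The integrated stress response list had a higher mean in 18 of 28 (median 0.03), and Gdf15, its lowest member, read -5.83, -3.64 and -6.94 at 24 hours against -4.46, -4.28 and -4.94 untreated. Cholesterol and fatty acid synthesis genes had a higher mean in 19 of 32 (median 0.01, and -0.03 after quantile normalization) and interferon and inflammatory genes in 15 of 20 (median 0.03). Iron and heme genes had one in 22 of 30 (median 0.04, and -0.00 without 24 hour replicate 2). Circadian clock genes had one in 7 of 18 (median -0.02, and 0.03 with normexp beside 0.05 over all features).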
